A study of Mus musculus with 18 samples.

Results

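The 37 genes described here encode the enzymes, carriers and regulators of fatty acid oxidation, together with target genes of the peroxisome proliferator-activated receptors (PPARs). They were taken by symbol from a list, and each of the 37 matched 1 of the 43432 gene identifiers of the count tables. The samples were mouse intestinal stem cells, purified by flow cytometry from the intestinal epithelium of animals aged 8 to 16 weeks, at 5000 to 10000 cells per sample. The 4 groups sequenced were wild type 2 days after tamoxifen (4 libraries), Dlg1 conditional knock-out 2 days after tamoxifen (4 libraries), wild type at 14 days (5 libraries) and knock-out at 14 days (5 libraries). Dlg1 encodes a polarity scaffold protein, and the series asks which genes differ in its absence at each time. Wild-type mice received tamoxifen as well, so the drug and the injection are shared by all 4 groups. The labels name neither the Cre driver nor the deleted exons, and give no sort marker and no animal behind a replicate, so each p-value speaks to the scatter of these libraries alone, part of which may be technical.

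Fatty acid oxidation removes carbon from fatty acids in pairs and passes the electrons to the respiratory chain. Acyl-CoA synthetases activate a fatty acid, the carnitine shuttle carries long chains into mitochondria, and a spiral of dehydrogenation, hydration, dehydrogenation and thiolysis shortens them, while peroxisomes handle very long chains. PPARs are nuclear receptors that bind fatty acids, pair with retinoid X receptors on DNA and activate many of these genes. In the intestine Ppard is known from crypt base cells and Ppara from the absorptive epithelium, and intestinal stem cell function has been tied to fatty acid oxidation.

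Sequence places part of the list on the genome. The first stretch is the gap between Hadha and Hadhb, which encode the paired subunits of the mitochondrial trifunctional protein and lie head to head on chromosome 5. It is shown because the subunits went opposite ways between 2 and 14 days. By the GENCODE M21 annotation of GRCm38, Hadha ends at its 5′ side at base 30155162 on the minus strand and Hadhb starts at base 30155248 on the plus strand. The gap between them, chr5:30155163-30155247 on the plus strand, is 85 bases long with a GC content of 69.4%.
Hadha-Hadhb gap: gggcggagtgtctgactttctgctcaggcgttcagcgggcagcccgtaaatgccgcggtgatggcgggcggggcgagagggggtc

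The second set holds the closest matches to the element that PPARs and retinoid X receptors bind, a direct repeat of AGGTCA with 1 base of any kind (N) between the copies, searched on both strands. RefSeq promoter windows of GRCm38.p6, from 250 bases before to 50 after a gene's start, were found for 33 of the 37 members (36 windows). Acaa2, Decr1, Vnn1 and Angptl4 had none. No member window held the repeat with 0 or 1 mismatch, against 0.0396% and 0.554% of all 32851 windows. With up to 2 mismatches, 5 member windows (13.9%) and 3.86% of all windows held it, and with up to 3 mismatches 10 member windows (27.8%) and 24.6% of all windows did. The AGGTCA hexamer alone, which the repeat contains, was in 9 member windows (25.0%) from 8 genes and in 16.3% of all windows. The 5 windows with up to 2 mismatches are shown with the repeat in capitals.
Plin2: tgacttAGGTCAGGGGTCCtgaaag
Cd36: ccaagtAAGTCAGAGGCCAgagaac
Echs1: ccgctcAGGTCACGGGTCCacccct
Etfa: gggagtAGGGCAAAGGTAAgggtgt
Slc25a20: gaatgtAGGTGAAAGGTCGgcggag
Coordinates span the printed bases, and distances are from the RefSeq start to the capitals. The Plin2 match (chr4:86670266-86670290, plus strand) begins 225 bases before the start of that gene. The Cd36 match (chr5:17835941-17835965, plus strand) lies 63 bases before, the Echs1 match (chr7:140116486-140116510, minus strand) 83 bases before and the Etfa match (chr9:55512302-55512326, plus strand) 77 bases before. The Slc25a20 match (chr9:108662136-108662160, plus strand) lies 6 bases after the start. A match describes letters only and says nothing of binding.

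Total counts were 14.8 to 40.5 M per library at 2 days and 11.1 to 15.7 M at 14 days, and mitochondrially encoded genes took 26.1 to 49.1% and 6.21 to 26.3% of them. Levels are given in CPM, the count of a gene relative to the total of its library, with all 18 libraries scaled together by trimmed means. The targeted gene, Dlg1, was at 70.3 ± 10.8 CPM in wild type and 54.0 ± 9.97 CPM in knock-out at 2 days (SD, n = 4 each), and at 63.3 ± 10.4 and 55.6 ± 19.8 CPM at 14 days (n = 5 each). Its groups overlapped at both times, and a count over the whole gene does not isolate the deleted part, which the labels do not name. Arhgap31, named in the series title, was at 3.84 ± 2.198 against 0.537 ± 0.328 CPM at 2 days and 8.86 ± 2.52 against 1.48 ± 0.73 CPM at 14 days, with no overlap at either time. All 15 crypt base markers, Lgr5 and Olfm4 among them, were detected in every library. Lgr5 was at 186 to 348 CPM in wild type at 2 days and 59.7 to 98.3 CPM at 14 days. Markers of other epithelial types were present too. At 14 days the summed crypt base markers (15 genes) were at 2552 to 3300 CPM in wild type and 2252 to 3175 CPM in knock-out. Those of Paneth cells (8 genes) were at 1711 to 13903 and 2739 to 4548 CPM. Those of goblet cells (8 genes) were at 1373 to 5821 and 1891 to 12664 CPM. Summed myeloid markers were at 7.96 to 69.3 CPM. The top value, in wild-type library 1 at 2 days, was mostly Itgam (65.8 CPM), with Adgre1, Csf1r and Tyrobp at 0. Lymphocyte markers summed to 3.59 to 18.8 CPM, and those of fibroblasts, endothelium, fat cells and red cells to between 0 and 13.3 CPM. At 2 days the fat cell gene Adipoq was at 0 in all 8 libraries. One library stood apart, wild type 1 at 2 days, with the largest total, the highest mitochondrial share and the fewest detected genes (16073).

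In wild-type stem cells the list was expressed across a wide range. Levels per kilobase use the merged exons of all annotated transcripts of a gene. This length can exceed that of an mRNA, so the order depends in part on annotation. Per kilobase of exon, the highest levels at 2 days were those of the electron transfer flavoprotein subunit Etfa (105 ± 79.6 CPM per kb, SD, n = 4), the thiolase Acaa2 (62.0 ± 15.7), the other flavoprotein subunit Etfb (47.8 ± 14.4), the triglyceride lipase Pnpla2 (36.7 ± 6.38) and the acyl-CoA synthetase Acsl5 (33.7 ± 5.54). The Etfa mean rested in part on wild-type library 1, which read 223 CPM per kb. The lowest 5 were Abhd5 (2.95 ± 0.722), Pparg (2.68 ± 0.907), the pantetheinase Vnn1 (1.32 ± 0.0765), the secreted lipase inhibitor Angptl4 (1.03 ± 0.633) and the fatty acid translocase Cd36 (0.0504 ± 0.0577). At 14 days the top 5 per kilobase were Etfb (197 ± 104 CPM per kb, n = 5), Acaa2 (160 ± 22.0), Etfa (82.6 ± 13.9), Acsl5 (40.6 ± 8.96) and Acadl (37.8 ± 5.59), and the bottom 5 were Ppard (3.02 ± 0.482), Vnn1 (1.98 ± 0.204), Pparg (1.37 ± 0.542), Abhd5 (1.25 ± 0.175) and Cd36 (0.807 ± 0.369). Neighbours in this order overlapped between libraries in 34 of 36 pairs at 2 days and 33 of 36 at 14 days. The separated neighbours were Pparg over Vnn1 and Angptl4 over Cd36 at 2 days, and Acaa2 over Etfa, Etfa over Acsl5 and Ppard over Vnn1 at 14 days. In both tables Acaa2, Etfa, Etfb and Acsl5 were thus among the 5 highest levels per length, and Cd36, Vnn1, Pparg and Abhd5 among the 5 lowest.

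At 2 days after tamoxifen no member passed the test between knock-out and wild type, and neither did any other gene. The quasi-likelihood test of edgeR, with Benjamini-Hochberg adjusted p-values, called 0 of 13031 genes (0.0%), 640 of which (4.91%) had an unadjusted p under 0.05, while DESeq2 called 13 genes and limma voom 0, with no member among them. Cd36 was too low to be tested at this time, leaving 36 members. The knock-out value was the higher in 26 of the 36 members (72.2%), against 51.0% of all genes tested, and the median log2 fold change of the members was 0.20 against 0.01 for all genes. There were 6 members with an unadjusted p under 0.05, and all 6 were higher in the knock-out (16.7%, against 2.72% of all genes). They were the carnitine carrier Slc25a20, Angptl4, the enoyl-CoA isomerase Eci2, Etfb, Acaa2 and the droplet coat protein Plin2.

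**Figure D1:**
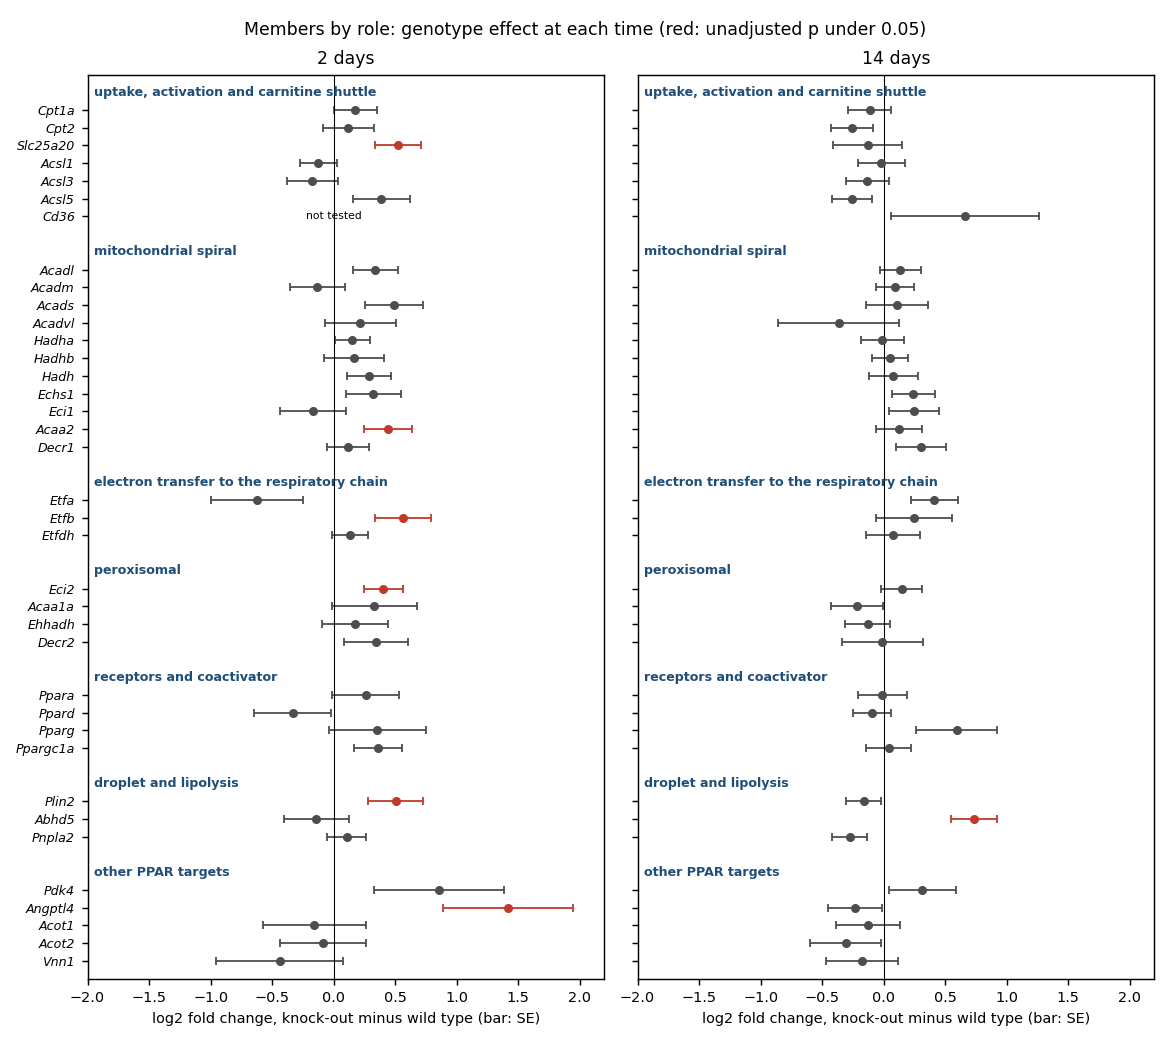
Log2 fold change of knock-out against wild type (horizontal axis) with its standard error for each of the 37 genes, in the order of their roles, at 2 days (left) and 14 days (right); red marks an unadjusted p under 0.05. At 2 days 26 of 36 values lie to the right of 0 and 6 are red, while at 14 days 18 of 37 lie to the right and Abhd5 is the red one.

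The carnitine shuttle was led by Slc25a20, which exchanges acylcarnitine for carnitine across the inner mitochondrial membrane. It read 42.4, 41.7, 35.3 and 27.7 CPM in the 4 wild-type libraries and 52.6, 49.9, 50.7 and 57.5 CPM in the 4 knock-out libraries. Every knock-out library was above every wild-type library, with a log2 fold change of 0.52 ± 0.19 (SE) and, by edgeR's quasi-likelihood test, an unadjusted p of 0.0162 and a Benjamini-Hochberg adjusted p of 0.866. The 2-sided exact permutation test over the libraries gave p = 0.0286, the smallest that 4 against 4 allow. Cpt1a, the rate-limiting transferase at the outer membrane, read 291, 204, 254 and 197 CPM in wild type and 302, 285, 214 and 266 CPM in knock-out. Cpt2, its partner at the inner membrane, read 58.1, 44.4, 61.4 and 54.0 CPM in wild type and 66.6, 38.4, 70.3 and 60.8 CPM in knock-out. Both transferases overlapped between the groups, at log2 fold changes of 0.18 ± 0.18 and 0.12 ± 0.21. Among the synthetases, Acsl5 had a value of 0.39 ± 0.23 that came down to 0.09 without knock-out library 1, which read 334 CPM against 166 to 181 CPM in the other knock-out libraries. Acsl5 overlaps the antisense gene Zdhhc6, which had 345 to 1489 reads per library against 1188 to 5741. Acsl1 and Acsl3 were at -0.12 and -0.17. Cd36 had 0 to 7 reads in a wild-type library and 0 to 81 in a knock-out library.

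In the mitochondrial spiral 9 of 11 members had a positive value, and 1, Acaa2, an unadjusted p under 0.05. Acaa2, which cleaves the last bond of each turn, read 68.8, 112, 117 and 78.8 CPM in wild type and 135, 107, 138 and 129 CPM in knock-out. One knock-out library fell among the wild-type ones, and the log2 fold change was 0.44 ± 0.19 (edgeR's quasi-likelihood test, unadjusted p = 0.0401). The long-chain dehydrogenase Acadl read 26.3, 32.8, 35.7 and 29.7 CPM in wild type and 39.6, 35.7, 42.8 and 39.0 CPM in knock-out. The short-chain dehydrogenase Acads read 9.76, 12.8, 15.1 and 13.6 CPM in wild type and 16.3, 21.1, 15.8 and 18.6 CPM in knock-out. Neither dehydrogenase overlapped between the groups, though the lowest knock-out and the highest wild-type library of Acadl were both at 35.7 CPM after rounding. Their log2 fold changes were 0.34 ± 0.18 and 0.49 ± 0.24, and edgeR's quasi-likelihood test gave unadjusted p-values of 0.0855 and 0.0596. Hadha, the trifunctional protein subunit with the hydratase and the long-chain dehydrogenase, read 221, 264, 226 and 209 CPM in wild type and 260, 225, 275 and 260 CPM in knock-out. Hadhb, the subunit with the thiolase, read 24.0, 18.3, 20.9 and 16.6 CPM in wild type and 21.3, 15.5, 30.2 and 22.4 CPM in knock-out. Both subunits overlapped between the groups, at 0.15 ± 0.14 and 0.17 ± 0.25. The medium-chain dehydrogenase Acadm (-0.13 ± 0.22) and the isomerase Eci1 (-0.17 ± 0.27) had the negative values of this role, and Acadvl, Hadh, Echs1 and Decr1 lay between 0.12 and 0.32.

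The flavoprotein subunits, which take electrons from the acyl-CoA dehydrogenases, had values of opposite sign. Etfb read 31.9, 66.6, 68.1 and 55.9 CPM in wild type and 72.0, 80.7, 95.4 and 79.2 CPM in knock-out. Its groups did not overlap, and the log2 fold change was 0.56 ± 0.23 (edgeR's quasi-likelihood test, unadjusted p = 0.0295). Etfb shares 44.8% of its 50-base windows with other annotated transcripts, most of them with Gm45233. Whether this sharing affected the Etfb counts was not tested. Etfa read 409, 92.1, 136 and 131 CPM in wild type and 133, 115, 125 and 124 CPM in knock-out. All 4 knock-out libraries lay inside the wild-type range, which library 1 sets, and the log2 fold change of -0.63 ± 0.37 did not pass the test and turned to 0.05 ± 0.15 without that library. The ubiquinone oxidoreductase Etfdh, which passes these electrons on, was at 0.13 ± 0.15.

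All 4 peroxisomal members were positive at 2 days, from 0.17 for the bifunctional enzyme Ehhadh to 0.40 for the isomerase Eci2. Eci2 read 50.1, 63.0, 65.7 and 58.9 CPM in wild type and 73.1, 74.8, 74.5 and 91.2 CPM in knock-out. The groups did not overlap, the log2 fold change was 0.40 ± 0.16 and edgeR's quasi-likelihood test gave an unadjusted p of 0.0269. Eci2 shares 11.1% of its 50-base windows with other genes. Decr2 and Acaa1a were at 0.35 ± 0.26 and 0.33 ± 0.34. Acaa1a shares 17.1% of its windows, 12.4% with Acaa1b. It also overlaps the antisense gene Myd88, which had 271 to 1055 reads per library against 440 to 3017. Over all members, 5 of 36 (13.9%) had every knock-out library above every wild-type library (Acadl, Acads, Eci2, Etfb and Slc25a20), against 2.0% of all genes tested, and 0 had every knock-out library below, against 1.93% of all genes.

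**Figure D2:**
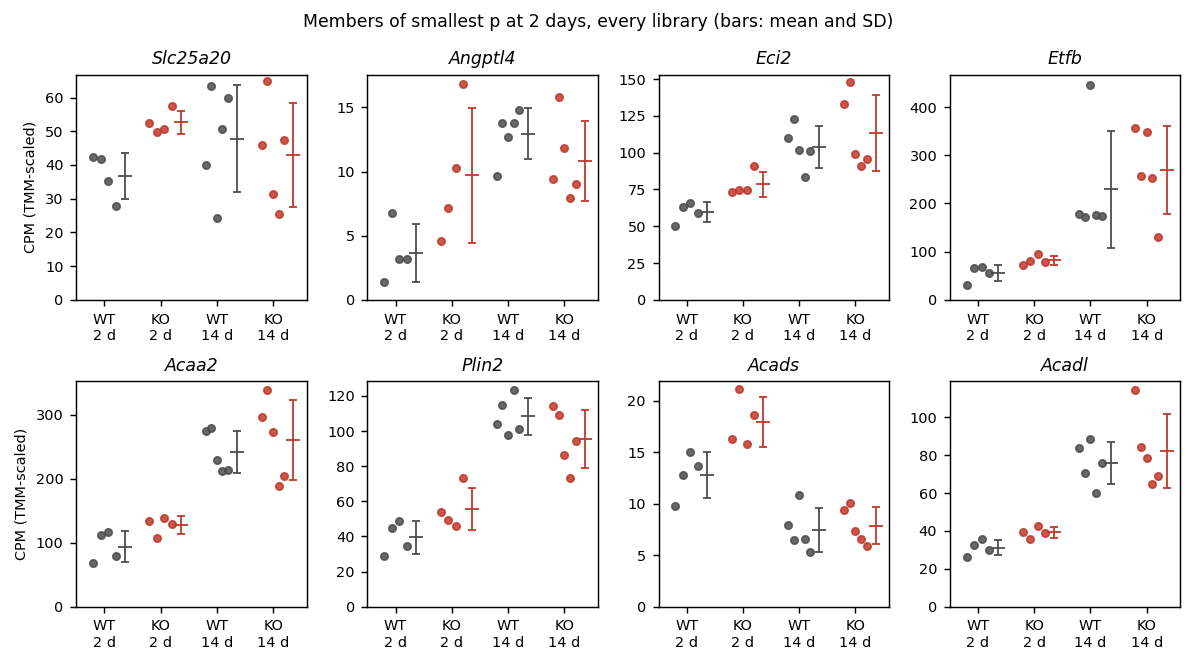
CPM (vertical axis, from 0) in each of the 18 libraries for the 8 members with the smallest p at 2 days; points are libraries in table order, the bar beside them is the mean with its SD, grey is wild type and red is knock-out. At 2 days Slc25a20, Eci2, Etfb, Acads and Acadl do not overlap between genotypes, and at 14 days all 8 do.

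The receptors were measured at low to moderate level and did not pass the test. Ppara read 19.02, 21.4, 9.79 and 14.8 CPM in wild type and 20.9, 20.01, 15.6 and 21.4 CPM in knock-out. Ppard read 261, 89.2, 104 and 94.3 CPM in wild type and 86.0, 117, 113 and 119 CPM in knock-out. The Ppard log2 fold change of -0.33 ± 0.31 turned to 0.18 without wild-type library 1. Pparg read 11.9, 7.34, 6.09 and 6.40 CPM in wild type and 8.14, 4.83, 14.8 and 12.8 CPM in knock-out. The coactivator Ppargc1a, known for driving mitochondrial gene programmes, read 64.0, 56.7, 51.7 and 42.0 CPM in wild type and 78.3, 75.5, 49.4 and 71.4 CPM in knock-out. All 4 genes overlapped between the groups, and Ppara, Pparg and Ppargc1a had values of 0.26 ± 0.27, 0.35 ± 0.40 and 0.36 ± 0.20.

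Of the droplet genes, Plin2 read 29.1, 45.0, 49.0 and 34.6 CPM in wild type and 53.8, 49.2, 46.2 and 73.3 CPM in knock-out. Of the knock-out libraries, 3 were above all wild-type libraries, with a log2 fold change of 0.50 ± 0.22 (edgeR's quasi-likelihood test, unadjusted p = 0.0432). The lipase Pnpla2 and its activator Abhd5 were at 0.11 ± 0.16 and -0.14 ± 0.26. Angptl4, a secreted inhibitor of lipoprotein lipase and a well-known PPAR target, read 1.41, 6.76, 3.22 and 3.20 CPM in wild type and 4.59, 7.16, 10.3 and 16.8 CPM in knock-out. It had the largest value of the members, 1.42 ± 0.53 (edgeR's quasi-likelihood test, unadjusted p = 0.0205), from 33 to 234 reads per library at this time, with 3 of 4 knock-out libraries above all wild-type ones. Pdk4, the kinase that turns pyruvate oxidation down, was at 0.86 ± 0.53, and Vnn1 at -0.44 ± 0.52.

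The thioesterases Acot1 and Acot2, which split acyl-CoA in the cytosol and in mitochondria, are close copies on chromosome 12: 19.2% of the 50-base windows of Acot1 and 27.7% of those of Acot2 also occur in other genes, mostly in each other, so their separate values are uncertain. Acot1 read 32.2, 11.5, 13.8 and 5.69 CPM in wild type and 16.2, 13.3, 14.6 and 12.8 CPM in knock-out. Acot2 read 28.9, 25.4, 18.7 and 9.98 CPM in wild type and 19.3, 14.8, 30.1 and 14.1 CPM in knock-out. Wild type spread the more widely in Acot1, and both genes overlapped between the groups, at -0.16 ± 0.42 and -0.09 ± 0.35.

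The count of 6 members with an unadjusted p under 0.05 depended on single libraries. It was 1 without library 4 of either genotype, 4 when knock-out library 1 was left out and 5 when knock-out library 3 was. It was 6 without wild-type library 1 or 3, 8 without knock-out library 2, and 7 higher with 1 lower without wild-type library 2. The count over all genes on the higher side, 355 of 13031, moved too. It was 294 of 13518 without wild-type library 4 and 271 of 13517 without knock-out library 4. Without knock-out library 1 or 2 it was 290 of 13340 and 345 of 13322, and without wild-type library 1 it was 515 of 13442. The number of positive members ran from 24 (without knock-out library 3) to 32 of 36 (without wild-type library 1). Each library was set against the wild-type mean log2 level of each gene, a wild-type library against the other wild-type libraries alone. Above that mean were 8 of 36 members in wild-type library 4 and 19 to 21 in the other wild-type libraries. In the knock-out libraries, set against all wild-type libraries, 31, 19, 24 and 28 members were above it. The counts of the genotypes thus use different references. Markers of absorptive enterocytes moved alongside. At 2 days 20 of 20 such markers had a positive log2 fold change (median 1.22), 10 of them with an unadjusted p under 0.05, and their summed level was 2673 to 3340 CPM in wild type and 2680 to 8398 CPM in knock-out, the top value being that of library 1. All 20 were detected in every library. All 8 goblet markers were positive (median 0.55), 2 of them with an unadjusted p under 0.05. Of 12 markers of dividing cells 10 were negative (median -0.38). The effect over all genes differed with GC content, from a median of -0.12 in the tertile of lowest GC to 0.15 in the highest. It also differed with exon length, from a median of 0.14 in the shortest tertile to -0.07 in the longest. The part of cell composition, division, GC content and exon length in the members' values was not tested. Fewer cells of a type and less RNA per cell cannot be told apart in such bulk samples.

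**Figure D3:**
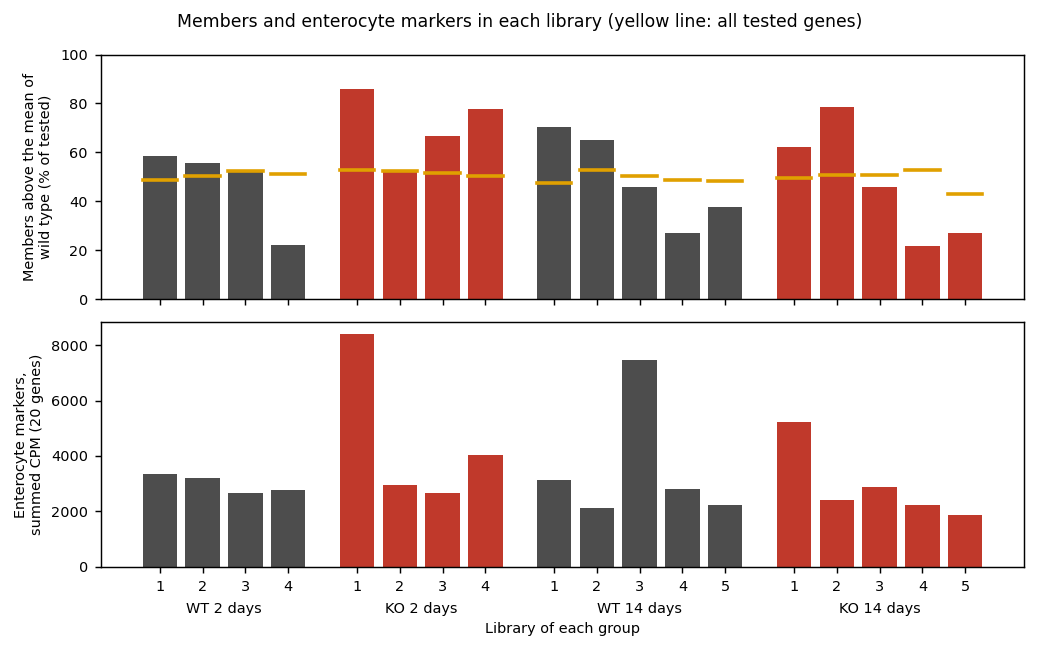
Upper panel, percentage of the tested members (36 at 2 days, 37 at 14 days) above the wild-type mean of that time in each library, with the same percentage over all genes tested as a yellow line; lower panel, summed CPM of 20 enterocyte markers in the same libraries, bars from 0. For a wild-type library the mean is that of the other wild-type libraries, for a knock-out library that of all. Wild-type library 4 at 2 days holds 8 members above the mean and knock-out library 1 holds 31. That knock-out library also has the highest marker sum, 8398 CPM.

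At 14 days the members were balanced between the genotypes, and in 1 of them, Abhd5, the groups did not overlap. The same edgeR test called 0 of 13991 genes (0.0%), with 558 (3.99%) at an unadjusted p under 0.05, and DESeq2 called 1 gene, Arhgap31. Of the 37 members 18 were positive (48.6%, against 51.0% of all genes), and their median was -0.01. One member had an unadjusted p under 0.05, 2.70% of the list against 2.44% of all genes on the higher side, which is near the background. In either direction the 558 genes became 1746 without wild-type library 3, 994 without knock-out library 5 and 315 without wild-type library 2. Without wild-type library 1 they became 574, and without knock-out library 1 they became 387. The 1 member became 4 without wild-type library 3 and 3 without wild-type library 1, all of them higher. The count of members was 2 higher without knock-out library 1 or 5, and 1 higher and 2 lower without knock-out library 2. On the higher side the 341 of 13991 genes became 1262 of 14369 without wild-type library 3 and 356 of 14184 without wild-type library 1. Without knock-out library 1 they became 165 of 14200. The count over all genes without knock-out library 2 is not given here.

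Abhd5 encodes CGI-58, the coactivator that releases Pnpla2 to hydrolyse triglycerides at lipid droplets (chr9:122351608-122381524, plus strand). It read 8.21, 8.46, 5.99, 7.86 and 6.78 CPM in the 5 wild-type libraries and 12.1, 12.4, 13.6, 12.01 and 11.4 CPM in the 5 knock-out libraries. Every knock-out library was above every wild-type library, which was so in 1 of 37 members on this side (2.70%) and in 0.207% of all genes tested. The log2 fold change was 0.74 ± 0.19, with an unadjusted p of 0.00139 and a Benjamini-Hochberg adjusted p of 0.957 by edgeR's quasi-likelihood test, and the 2-sided exact permutation test gave 0.00794, the smallest value 5 against 5 allow. The fold change stayed between 0.66 and 0.78 in all alternatives and with each library left out, and its adjusted p between 0.193 and 1.0. The antisense gene A730085K08Rik, which covers 14.8% of the 50-base windows of Abhd5, had 0 to 11 reads per library against 70 to 436 for Abhd5. The 14-day column names carry the letter B for libraries 1 and 2 and J for libraries 3 to 5 in both genotypes. That Abhd5 was higher in knock-out within each letter follows from the full separation and is no further check. At 2 days the same gene read 16.1, 12.1, 21.2 and 20.8 CPM in wild type and 19.9, 14.3, 17.3 and 12.1 CPM in knock-out, with overlapping groups.

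**Figure D4:**
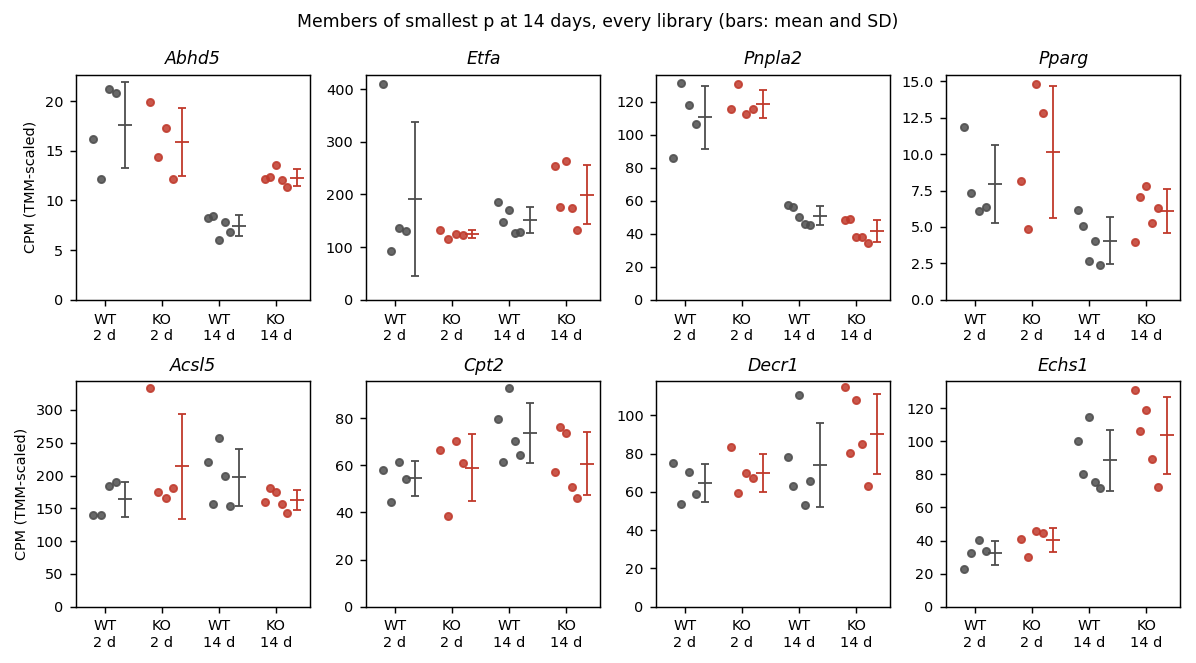
CPM (vertical axis, from 0) in each of the 18 libraries for the 8 members with the smallest p at 14 days, drawn as points in table order with the mean and SD beside them, wild type in grey and knock-out in red. For Abhd5 the 5 knock-out libraries at 14 days (11.4 to 13.6 CPM) lie above the 5 wild-type libraries (5.99 to 8.46 CPM), and the other 7 genes overlap.

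Pnpla2, the lipase that Abhd5 activates, read 57.7, 56.4, 50.1, 45.8 and 45.4 CPM in wild type and 48.6, 48.8, 38.0, 37.9 and 34.7 CPM in knock-out. Its value was of the opposite sign, -0.28 ± 0.14, and its groups overlapped. Etfa read 185, 147, 170, 128 and 128 CPM in wild type and 254, 176, 263, 174 and 133 CPM in knock-out, at 0.41 ± 0.19. Decr1, an auxiliary reductase for unsaturated chains, read 77.9, 63.2, 110, 53.0 and 65.7 CPM in wild type and 115, 80.2, 108, 85.0 and 63.1 CPM in knock-out. Echs1, the short-chain hydratase, read 100, 80.1, 115, 75.6 and 71.6 CPM in wild type and 131, 106, 119, 89.3 and 72.5 CPM in knock-out. These 3 oxidation genes overlapped between the groups, Decr1 at 0.30 ± 0.20 and Echs1 at 0.24 ± 0.18.

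Acsl5 read 221, 157, 257, 199 and 154 CPM in wild type and 160, 182, 174, 156 and 144 CPM in knock-out, a value of -0.26 ± 0.16. Cpt2 read 79.7, 61.5, 92.9, 70.2 and 64.3 CPM in wild type and 57.1, 76.1, 73.7, 50.7 and 46.0 CPM in knock-out, a value of -0.26 ± 0.17. The wild-type groups of both genes were the higher on average and overlapped the knock-out ones. Slc25a20, separated at 2 days, read 40.1, 63.4, 24.4, 50.8 and 59.9 CPM in wild type and 45.9, 64.8, 31.3, 25.4 and 47.5 CPM in knock-out. Cpt1a read 171, 225, 171, 168 and 229 CPM in wild type and 176, 230, 137, 156 and 177 CPM in knock-out. Of the 7 genes of uptake, activation and shuttle 6 were negative at this time, and Cd36 was at 0.66 ± 0.60.

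Among the regulators Pparg read 6.17, 5.04, 2.65, 4.03 and 2.37 CPM in wild type and 3.96, 7.05, 7.83, 5.24 and 6.28 CPM in knock-out, a value of 0.60 ± 0.33. Of the 5 knock-out libraries 3 were above all wild-type libraries, and the exact permutation test gave p = 0.0714. Ppara read 13.7, 14.5, 10.9, 10.2 and 14.0 CPM in wild type and 16.9, 10.9, 13.5, 11.0 and 9.79 CPM in knock-out. Ppard read 17.1, 26.5, 24.7, 21.6 and 23.7 CPM in wild type and 19.6, 21.7, 21.7, 22.3 and 19.1 CPM in knock-out. Ppargc1a read 47.3, 42.1, 31.2, 26.2 and 43.3 CPM in wild type and 50.1, 40.2, 35.9, 34.1 and 33.1 CPM in knock-out. The genotypes overlapped in all 4 genes, and Ppara, Ppard and Ppargc1a were at -0.01 ± 0.20, -0.10 ± 0.15 and 0.04 ± 0.18.

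Neither trifunctional protein subunit passed the test at 14 days. Hadha read 94.6, 105, 167, 96.0 and 96.5 CPM in wild type and 116, 118, 119, 113 and 81.5 CPM in knock-out. Hadhb read 43.9, 42.7, 39.1, 33.2 and 34.2 CPM in wild type and 43.8, 46.1, 34.7, 36.8 and 36.0 CPM in knock-out. Their log2 fold changes were -0.01 ± 0.18 and 0.05 ± 0.14. Acot1 read 10.1, 19.0, 11.1, 13.3 and 15.7 CPM in wild type and 11.3, 20.8, 11.6, 10.4 and 8.22 CPM in knock-out. Acot2 read 4.50, 10.8, 10.8, 6.63 and 8.43 CPM in wild type and 5.49, 8.64, 4.46, 6.33 and 7.61 CPM in knock-out. Both thioesterases overlapped, at -0.13 ± 0.26 and -0.31 ± 0.29.

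In the spiral 9 of 11 members were positive at 14 days (median 0.11), the exceptions being Acadvl (-0.37 ± 0.49) and Hadha. All 3 genes of electron transfer were positive, with Etfb at 0.25 ± 0.31 and Etfdh at 0.08 ± 0.22. Of the 4 peroxisomal genes 1 was positive, Eci2 at 0.15 ± 0.17, and Acaa1a was at -0.22 ± 0.21. Among the remaining targets Pdk4 was at 0.32 ± 0.27, Angptl4 at -0.23 ± 0.22, Vnn1 at -0.17 ± 0.29 and Plin2 at -0.16 ± 0.15.

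In both genotypes the libraries whose names carry the letter B held more members above the wild-type mean than those with J. With B these were 26 and 24 in wild type and 23 and 29 in knock-out, of 37. With J they were 17, 10 and 14 in wild type and 17, 8 and 10 in knock-out. A wild-type library was set against the mean of the other wild-type libraries, a knock-out library against that of all. Enterocyte markers were negative in 19 of 20 cases at this time (median -0.40), with summed levels of 2139 to 7468 CPM in wild type and 1872 to 5241 CPM in knock-out, and all 8 goblet markers were positive (median 0.57). The part of either cell type in the members' values was not tested.

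The joint fit of all 18 libraries gave the mean of the genotype effects at both times, which an effect at 1 time can carry. Averaged over the times, 1 of 15458 genes was called (0.00647%), Arhgap31, which fell (log2 fold change -2.71 ± 0.36, adjusted p = 0.00328 by edgeR's quasi-likelihood test, Benjamini-Hochberg). The members had 26 of 37 positive values (70.3%, against 50.9% of all genes), and 0 were called. On the higher side 3 members (8.11%) had an unadjusted p under 0.05, against 3.24% of all genes. They were Cd36 (1.88 ± 0.72), Eci2 (0.26 ± 0.12) and Angptl4 (0.58 ± 0.27, from 1.42 at 2 days and -0.23 at 14 days), followed by Acaa2 (0.27 ± 0.14) and Echs1 (0.27 ± 0.14). With a library left out the count of 3 ran from 1 (without wild-type library 4 at 2 days, wild-type library 4 at 14 days, or knock-out library 1 or 2 at 14 days) to 7 (without wild-type library 3 or knock-out library 5 at 14 days). The count over all genes on that side, 501 of 15458, moved too. It was 561 of 15922 and 380 of 15187 without wild-type library 4 at 2 and 14 days. At 14 days it was 346 of 15365 without knock-out library 1 and 993 of 15371 without wild-type library 3. Cd36 had failed the low-count filter at 2 days and entered the joint fit through its 14-day counts. It rested on few reads at 2 days, and its averaged value lay between 0.88 and 1.91 in the alternative settings and between 1.09 and 2.37 with a library left out.

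Whether the genotype effect differed between the times was tested by the interaction, 14 days minus 2 days. No gene was called among 15458 (0.0%; 921 genes, 5.96%, at an unadjusted p under 0.05, and 13 called by DESeq2, none of them a member), and 11 of 37 members had a positive difference (29.7%, against 48.9% of all genes), with a median of -0.27 against -0.01 for all genes. The enterocyte markers moved with it, 20 of 20 being negative (median -1.76), 11 of them at an unadjusted p under 0.05, and their part was not tested. An unadjusted p under 0.05 was found for 2 members on the positive side (5.41%, against 2.32% of all genes) and 3 on the negative side (8.11%, against 3.64%). Angptl4 (-1.67 ± 0.54, unadjusted p = 0.00558), Plin2 (-0.68 ± 0.25, 0.0141) and Acsl5 (-0.66 ± 0.29, 0.0313) had the more negative genotype effect at 14 days, whereas Abhd5 (0.86 ± 0.31, 0.0115) and Etfa (1.03 ± 0.43, 0.0271) had the more positive one, all with Benjamini-Hochberg adjusted p-values of 0.762 to 0.815 by edgeR's quasi-likelihood test. Without wild-type library 1 at 2 days the Etfa difference was 0.36 ± 0.28, and without knock-out library 1 at 2 days that of Acsl5 was -0.37 ± 0.25. Each genotype effect was taken within its own table, so a table difference that shifts both genotypes alike on the log scale cancels. Any other table difference, such as one in sensitivity, cannot be told apart from a change of the genotype effect with time.

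Between 2 and 14 days most of the list differed, in both genotypes, but the times lie in separate tables, and time and table cannot be told apart. In wild type 8251 of 15458 genes were called (53.4%), and 22 of 37 members (59.5%): 13 were higher at 14 days (35.1%, against 27.7% of all genes) and 9 lower (24.3%, against 25.7%). In knock-out 7787 genes were called (50.4%), and 19 members (51.4%), 10 higher (27.0%, against 25.3%) and 9 lower (24.3%, against 25.1%). All 10 members that were higher in knock-out were also higher in wild type (76.9% of the 13), and 7 members were lower in both (77.8% of each 9). The members' shares were near those of all genes. The median of all genes was 0.12 in wild type and 0.06 in knock-out by trimmed means and moved to 0.25 and 0.19 under upper-quartile scaling. No called member changed sign under any of the 8 alternatives. Crypt base markers moved with the same contrast, their summed level being 7175 to 8109 CPM in wild type and 6292 to 7249 CPM in knock-out at 2 days and 2552 to 3300 and 2252 to 3175 CPM at 14 days. Goblet markers were called higher in 7 of 8 cases in wild type (median 1.83) and 6 of 8 in knock-out (median 2.13). Markers of dividing cells were called lower in 7 of 12 cases in wild type and 6 of 12 in knock-out. Those of absorptive enterocytes were positive in 15 of 20 cases in wild type (median 0.82) and negative in 16 of 20 in knock-out (median -0.71). Detected genes numbered 16073 to 18750 per library at 2 days and 20398 to 26773 at 14 days. The part of these shifts in the members' values was not tested.

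Of the 13 members higher at 14 days in wild type 7 were enzymes of the mitochondrial spiral. The largest called values were those of Cd36 (3.98 ± 1.16), Etfb (2.05 ± 0.32), Angptl4 (1.83 ± 0.40) and the very-long-chain dehydrogenase Acadvl (1.70 ± 0.47). Their Benjamini-Hochberg adjusted p-values by edgeR's quasi-likelihood test were 0.00628, 1.65e-05, 0.000626 and 0.0042. Cd36, with 0 to 7 reads per wild-type library at 2 days, rose from 0.181 ± 0.207 CPM (n = 4) to 2.90 ± 1.32 CPM (n = 5), Etfb from 55.6 ± 16.7 to 230 ± 121 CPM, Angptl4 from 3.65 ± 2.24 to 12.9 ± 2.0 CPM and Acadvl from 10.2 ± 1.09 to 33.2 ± 19.9 CPM. Having failed the low-count filter at 2 days, Cd36 entered the joint fit through its 14-day counts. A rise was thus favoured by its being tested. Acadvl shares 26.9% of its 50-base windows with the antisense gene Dvl2, and reads from those windows could not be told apart here. Dvl2 had 27 to 875 reads per library against 54 to 1046 for Acadvl. In knock-out the largest were Eci1 (2.09 ± 0.25), Etfb (1.72 ± 0.31), Echs1 (1.36 ± 0.21) and Acadvl (1.11 ± 0.46), with adjusted p-values of 6.03e-07, 0.000112, 1.34e-05 and 0.0498 by the same edgeR test. Eci1 rose there from 18.5 ± 2.84 to 79.0 ± 26.9 CPM and Echs1 from 40.3 ± 7.19 to 103 ± 23.1 CPM. The Acadvl call in knock-out was lost in 1 of 8 alternatives and in 11 of 18 fits with a library left out. Acaa1a, Acaa2, Acadl, Eci2, Hadhb and Plin2 were called higher in both genotypes, and Hadh in wild type. The shared sequence of Acaa1a (17.1%) and Eci2 (11.1%) applies here too. With a library left out, the knock-out call of Acaa1a held in 12 of 18 fits and the wild-type call of Hadh in 15 of 18.

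The genes lower at 14 days included the receptors. Ppard fell from 137 ± 82.7 CPM to 22.7 ± 3.62 CPM in wild type and from 109 ± 15.4 to 20.9 ± 1.45 CPM in knock-out. Its log2 fold changes of -2.60 ± 0.25 and -2.38 ± 0.25 had adjusted p-values of 3.12e-08 and 1.21e-07 by edgeR's quasi-likelihood test, Benjamini-Hochberg, and the wild-type value was -2.09 without library 1 of 2 days. Ppargc1a was called lower in both genotypes (-0.49 ± 0.19 and -0.83 ± 0.20), Pparg in wild type (-0.96 ± 0.37) and Ppara in knock-out (-0.65 ± 0.24), and all 4 regulators had negative values in both. The wild-type calls of Ppargc1a and Pparg held in 4 and 5 of 8 alternatives and in 13 and 14 of 18 fits with a library left out, and the knock-out call of Ppara in 5 of 8 and 12 of 18, whereas the Ppard calls held in all of them. The synthetase Acsl1 (-1.33 ± 0.18 and -1.24 ± 0.18) and Acot2 (-1.34 ± 0.32 and -1.59 ± 0.33) were among the 4 largest falls of each genotype, completed by Abhd5 in wild type (-1.23 ± 0.22) and Pnpla2 in knock-out (-1.51 ± 0.15). Abhd5 fell from 17.6 ± 4.30 to 7.46 ± 1.04 CPM in wild type, and in knock-out went from 15.9 ± 3.41 to 12.3 ± 0.822 CPM without passing the test (-0.37 ± 0.22). That the Abhd5 time course differs with genotype is the interaction given above, which was not called. Pnpla2 fell from 119 ± 8.27 to 41.6 ± 6.65 CPM in knock-out and was called in wild type as well (-1.12 ± 0.15).

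The trifunctional subunits on either side of the printed gap were called in opposite directions in both genotypes. Hadha went from 230 ± 23.7 to 112 ± 31.2 CPM in wild type and from 255 ± 20.9 to 109 ± 15.8 CPM in knock-out, values of -1.04 ± 0.17 and -1.22 ± 0.17 (adjusted p = 3.38e-05 and 5.59e-06, edgeR's quasi-likelihood test, Benjamini-Hochberg). Hadhb went from 19.9 ± 3.23 to 38.6 ± 4.84 CPM in wild type and from 22.4 ± 6.07 to 39.5 ± 5.12 CPM in knock-out, values of 0.95 ± 0.19 and 0.82 ± 0.19 (adjusted p = 0.000278 and 0.00114, the same edgeR test). Every 14-day library was below every 2-day library for Hadha and above every one for Hadhb. The share of all genes separated in this way was not counted. In these contrasts 53.4% of all genes in wild type and 50.4% in knock-out were called. Hadhb shares 19.7% of its 50-base windows with other genes, most of them with Gm13910.

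Gene length, taken as the merged exons of all annotated transcripts, moved with this contrast. This length can exceed that of an mRNA. Across all genes the time effect fell with exon length (Spearman's rho over 15334 genes, which share libraries and are not independent, -0.39 in wild type and -0.37 in knock-out). In wild type the tertile of shortest genes had a median of 1.01, with 43.4% called higher and 10.2% lower, and the longest tertile a median of -0.42, with 14.2% called higher and 42.0% lower. Among the members 5 of 11 in the shortest tertile were called higher and 2 lower, and 3 of 10 in the longest were called higher and 5 lower. Etfb, with 1164 exon bases, is the shortest member, and Acsl1 (10483), Hadha (8730), Ppard (7514) and Abhd5 (5956) are among the long ones. Echs1 (8286), which overlaps the antisense gene Paox (18 to 112 reads per library against 526 to 1919), Hadhb (6595) and Eci2 (5540) were called higher at a length where 14.2% of genes were, and Acot2 (2196) and Acads (2269) lower where 10.2% were. The part of length in the time values was not tested.

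**Figure D5:**
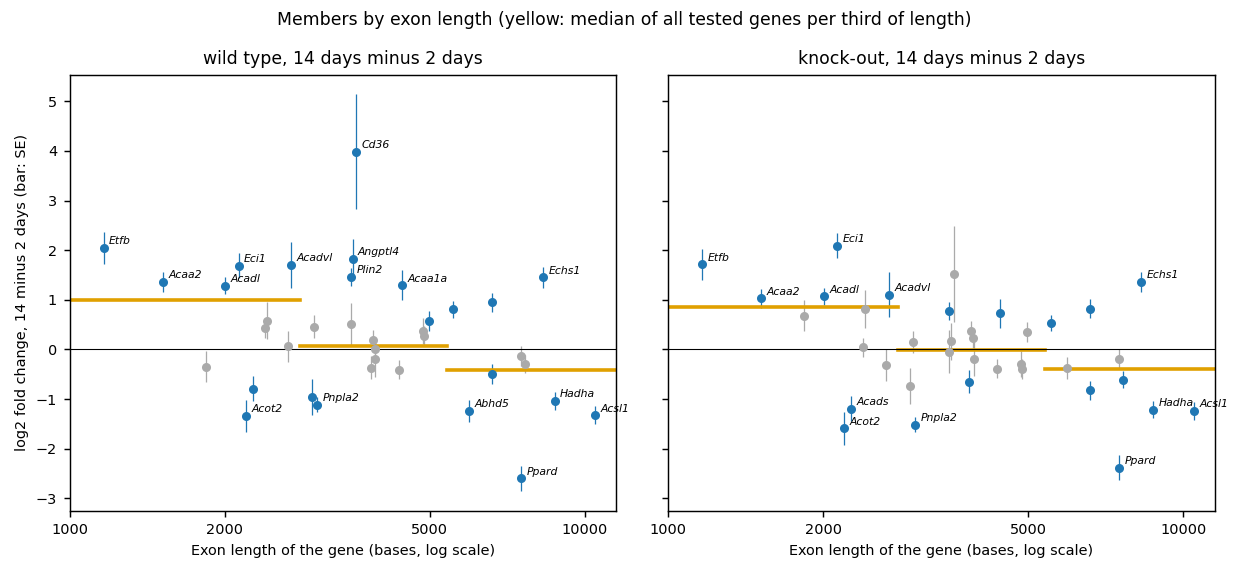
Log2 fold change of 14 against 2 days with its standard error (vertical axis) against exon length in bases (horizontal axis, log scale) for the 37 members, wild type on the left and knock-out on the right; blue marks an adjusted p under 0.05 and yellow lines are medians of all genes per tertile of length. The wild-type medians step from 1.01 to -0.42, and Echs1, Hadhb and Eci2 are blue and above 0 among the long genes while Acot2 and Acads are blue and below 0 among the short ones.

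Other genes of the pathways, from lists without the members, were read beside them. Over all genes 51.0% were positive at each time, with 2.72% at an unadjusted p under 0.05 on the higher side at 2 days and 1.55% on the lower side at 14 days. Of the other PPAR targets 24 were tested at 2 days, where 20 were positive (median 0.39) and 6 had an unadjusted p under 0.05, all higher, and 26 were tested at 14 days, where 7 were positive (median -0.11) and 3 had an unadjusted p under 0.05, all lower. Slc27a4, a fatty acid transport protein, was at 1.11 ± 0.35 at 2 days and -0.51 ± 0.22 at 14 days. Fabp1, the fatty acid binding protein, and Me1, malic enzyme, were at 1.62 ± 0.53 and 1.44 ± 0.48 at 2 days. Creb3l3, a lipid-responsive transcription factor, and the droplet protein Cidec were at -0.47 ± 0.19 and -0.57 ± 0.26 at 14 days. In the interaction 24 of 27 of these targets were negative (median -0.67), and 0 were called in any genotype contrast by edgeR. Fabp1 and Dgat1, named here, are also enterocyte markers, and the enterocyte markers were positive in 20 of 20 cases at 2 days and negative in 19 of 20 at 14 days.

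The peroxisomal list had 18 of 23 positive values at 2 days (median 0.14) and 11 of 23 at 14 days, with 0 at an unadjusted p under 0.05 at either time. Of 17 tested genes of carnitine and mitochondrial acyl-CoA handling 12 were positive at 2 days, 2 with an unadjusted p under 0.05 (Hsd17b10 at 0.51 ± 0.19 and Crat, the carnitine acetyltransferase, at 0.54 ± 0.25), and 9 at 14 days. Ketone body genes had 0 of 5 tested at an unadjusted p under 0.05 at either time. Of the receptor partners and coregulators 10 of 20 were positive at 2 days and 2 of 20 at 14 days (median -0.14), with 0 at an unadjusted p under 0.05. Fatty acid synthesis had 13 of 19 positive at 2 days, 3 with an unadjusted p under 0.05 (Me1, Agpat2 at 1.14 ± 0.50 and Dgat1 at 0.72 ± 0.32), and 6 of 19 at 14 days. Lipase and droplet genes had 7 of 10 positive at 2 days and 7 of 13 at 14 days, with 0 at an unadjusted p under 0.05.

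Between 2 and 14 days the lists are to be read against all genes, of which 27.7% were called higher and 25.7% lower in wild type and 25.3% and 25.1% in knock-out. Peroxisomal genes were called higher 13 times and lower 2 times among 23 in wild type and 11 and 4 times in knock-out, with the thioesterase Acot8 at 2.199 ± 0.26 and 2.13 ± 0.26. Lipase and droplet genes were called higher 8 times and lower 2 times among 13 in wild type and 7 and 3 times in knock-out, with the droplet protein Plin3 at 2.04 ± 0.31 and 1.30 ± 0.30. The other PPAR targets were called higher 14 times and lower 5 times among 27 in wild type and 7 times each way in knock-out. Receptor partners were called higher 5 times and lower 11 times among 20 in wild type and 1 and 10 times in knock-out. The mediator subunit Med1 (-1.86 ± 0.17 and -1.93 ± 0.17) fell in both. Fatty acid synthesis was called higher 5 times and lower 7 times among 19 in wild type and 3 and 9 times in knock-out, with the desaturase Fads2 at -2.96 ± 0.23 and -3.12 ± 0.24. Carnitine and acyl-CoA handling was called higher 5 times and lower 2 times among 18 in wild type and 6 and 3 times in knock-out, and ketone body genes 1 and 1 times among 5 in wild type and 2 and 1 times in knock-out.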

How the data were processed

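The authors deposited read counts per Ensembl gene as whole numbers, in separate tables for 2 and 14 days, not normalized. STAR 2.4.2a, bcl2fastq 2.20.0.422 and build GRCm38 are named in the submitters' processing notes. Per the labels' protocols, polyA RNA was amplified with SmartSeq and Nextera XT kits, and no molecular identifier is named, so counts hold amplified copies and arise from 11.1 to 40.5 M counts per library. For the annotation, the counter and the strand setting: not given in the sources used here. Columns beginning with Dmin (2 days) were read as the knock-out; libraries were numbered by table order and pair nothing across groups. Every comparison at 2 days rests on that reading. Symbols, coordinates and exon lengths came from GENCODE M21. An exon length is that of the merged exons of all annotated transcripts of a gene. Of 43432 identifiers 42548 had a symbol, 56 shared one, and those without held at most 0.185% of a library's counts.

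edgeR 4.0.16 (R 4.3.3) kept genes with filterByExpr (minimum count 10), scaled by trimmed means (TMM) and fitted the quasi-likelihood F-test, each time alone for the genotype effects and all 18 libraries with 4 group means for the other contrasts. P-values were adjusted by Benjamini-Hochberg over all genes tested and called under 0.05; standard errors are the absolute log2 fold change over the square root of F. Printed CPM come from the joint scaling. Exact 2-sided permutation tests used log2(CPM + 0.5) over 70 or 252 assignments. The members and lists were chosen with earlier results of these data known. Values in every library are given for the 8 members of smallest p at each time, the shuttle pair with its carrier, the trifunctional subunits, the receptors with their coactivator, and the Acot pair; for the joint contrasts the 5 of smallest p, and for time the 4 largest called per direction; of other lists up to 3 of smallest p per comparison, other genes being chosen after their values were seen. The script was tested on simulated data. Alternatives were other scalings and filters, DESeq2 1.42.0, limma 3.58.1 (voom), 1 joint fit, no mitochondrially encoded genes, Y-linked transcripts as a covariate, the column letter (chosen after seeing the data) and each library left out.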

Additional observations from a re-analysis of the deposited data

Results flagged for a closer look

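In 70 groups of 4 or 5 libraries 5 values lay far from the rest of their group by Dixon's test at the 95% level, where chance gives about 1 in 20. Ppard read 261 CPM in wild-type library 1 at 2 days against 89.2 to 104 CPM in the other 3. Eci2 read 91.2 CPM in knock-out library 4 at 2 days against 73.1 to 74.8 CPM. Hadha read 167 CPM in wild-type library 3 at 14 days against 94.6 to 105 CPM, and 81.5 CPM in knock-out library 5 at 14 days against 113 to 119 CPM. Acot1 read 20.8 CPM in knock-out library 2 at 14 days against 8.22 to 11.6 CPM. The library behind the Ppard value is also the one with the highest mitochondrial share, 49.1%. The sources of these values were not tested.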

How the results depend on the processing

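No member was called in a genotype contrast or in the interaction under any alternative or with any library left out. Over all genes, the number called at 2 days (0) was 7 with no filter on low counts, 13 by DESeq2, 2 with all 18 libraries in 1 fit, 2 with the Y-linked covariate and 0 to 1 with a library left out. At 14 days (0) it was 2 with no filter and 1 by DESeq2. Averaged over both times (1) it was 40 with no filter, 7 by DESeq2, 3 with the Y-linked covariate and 1 to 2 with a library left out, and in the interaction (0) it was 98, 13, 1 and 0 to 1. Some values changed sign, among them Etfa at 2 days (-0.63), which was 0.05 without wild-type library 1. At 2 days Acot1 was 0.017 by limma voom. At 14 days Hadha was 0.0173 by limma voom, and Hadhb (-0.012) and Ppargc1a (-0.024) turned with no filter. With a library left out, values at 2 days ran from -0.025 to 0.31 for Hadhb, -0.49 to 0.18 for Ppard, -0.44 to 0.45 for Acot1 and -0.38 to 0.12 for Acot2. At 14 days they ran from -0.34 to 0.0095 for Slc25a20, -0.060 to 0.17 for Hadha, -0.017 to 0.11 for Hadhb, -0.14 to 0.040 for Ppara, -0.068 to 0.14 for Ppargc1a and -0.40 to 0.012 for Acot1. The cause was not tested. No paired analysis was possible because the column names carry no replicate number of the labels. With 4 or 5 libraries a group, no genotype effect of a member passed adjustment, Abhd5 at 14 days (0.74, SE 0.19) included.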
